A study of Mus musculus with 2 samples.

Results

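The mitochondrial ribosomal protein genes were taken as every row of the deposited expression files whose symbol begins with Mrps or Mrpl and a digit, which gave 77 genes (29 Mrps and 48 Mrpl) of 23889 symbols. They were examined in E14 mouse embryonic stem cells (mESCs) with and without knockdown of the deubiquitinase USP21. E14 is an established line that the labels derive from a 19/Ola mouse, and both cultures grew without feeder cells in medium with 15% FBS and 1000 U/ml LIF. The cells labelled Normal were transfected with a control shRNA and the cells labelled USP21 knockdown with an shRNA against USP21, and total RNA was sequenced after 3 days. Each group holds 1 library, so every difference below has no replicate check, no test was possible, and the values describe these 2 libraries. Which USP21 shRNA was used, and whether transfected cells were selected, is not given in the sources used here.

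Mitochondria keep a small genome of their own and a separate ribosome that makes core membrane subunits of the respiratory chain. The ribosomal RNAs of this ribosome are encoded in the mitochondrial genome, whereas all of its proteins are encoded in the nucleus, made in the cytosol and imported. Part of these proteins descend from bacterial ribosomal proteins and part are found only in mitochondria. Embryonic stem cells contain comparatively immature mitochondria and use glycolysis, and their metabolism was not measured here.

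The unit throughout is FPKM (fragments per kilobase of transcript with the mapped fragments of the library as scale). It scales for transcript length, so levels of different genes can be set side by side. Below, control cells and knockdown cells stand for the library of each group. The summed FPKM was 613617 for control cells and 543206 for knockdown cells, and by the steps in the lowest values the former library was 1.23 times as deep. Usp21, the targeted gene, stood at 26.2 FPKM in control cells and at 3.49 in knockdown cells. All 8 embryonic stem cell markers examined were at 76.5 FPKM or more in both libraries, Pou5f1 at 868 and 752 and Nanog at 467 and 258. On the deposited scale each of them was lower in knockdown cells, and their summed FPKM was 4275 and 3217. Of 6 fibroblast markers only Thy1 reached 1 FPKM, at 17.3 and 5.29, and Lum was listed at 0 in both. Summed FPKM of the other marker lists was 47.7 and 39.8 for primitive endoderm, 47.1 and 31.9 for neural cells, 2.85 and 3.03 for mesoderm, and 1.67 and 3.33 for trophectoderm. The neural sum was led by Tubb3, at 38.5 and 20.4, whereas Sox1 had 6.08 and 8.30 and Nes 1.71 and 2.42. The other lists also ran both ways. In primitive endoderm Dab2 had 23.1 and 16.4, and Sox7, Sox17 and Foxa2 were lower too. Gata6 had 8.60 and 10.8, and Gata4 had 5.70 and 5.78. No trophectoderm marker was over 1 FPKM in control cells. Hand1, Gata3 and Cdx2 were higher in knockdown cells, and Krt7 and Elf5 were lower. The part of these marker differences in the values below was not tested, and in bulk RNA fewer cells of a type and less RNA per cell cannot be told apart.

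All 77 genes were expressed in both libraries. Control levels ran from 11.6 FPKM for Mrpl19 to 247 for Mrpl52, a 21.2-fold span, and levels in knockdown cells from 11.7 to 201, a 17.2-fold span. The median member stood at 57.7 FPKM in control cells and at 51.1 in knockdown cells, against 12.3 and 12.6 for the 11642 genes with a mean FPKM of at least 1, which are called expressed here. Of the 77 genes, 76 lay above that control median, and the median control level of the members sat at the 86.1 percentile of all expressed genes. Together they took 0.842% of all FPKM in control cells and 0.849% in knockdown cells. The order of the genes by level was largely shared between the libraries (Spearman rho 0.94 over the 77 genes, which come from the same 2 libraries and are not independent).

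The 5 highest control levels belonged to genes of both subunits. Mrpl52, a large-subunit protein found only in mitochondria, had 247 FPKM in control cells and 201 in knockdown cells. Mrpl12, a protein of the stalk that recruits translation factors, had 198 and 177. Mrpl30, of bacterial descent, had 171 and 147. These leading genes were lower in knockdown cells on the deposited scale, and 11 of the 12 members at 100 FPKM or more in control cells were so, including Mrpl2, a protein near the peptidyl transferase centre, with 158 and 149, and Mrps16, a small-subunit protein of bacterial descent, with 156 and 127. Ranking by control level by itself favours lower values in the other library. Genes at a mean of 100 FPKM or more also lay lower as a whole, as given with the level classes below. The share of all genes at 100 FPKM or more in control cells that were lower is not given here. The count of 11 of 12 is therefore not read as a trait of the members. With both libraries scaled to equal FPKM sums, Mrpl12 and Mrpl2 were no longer lower. At the other end of the range, Mrpl19 had 11.6 FPKM in control cells and 11.7 in knockdown cells, and Mrps25 had 13.5 and 13.2. Mrpl35 had 15.6 and 12.2, and Mrpl41 had 18.0 and 19.7. Except for Mrpl35, these low genes differed by less than 0.13 on the log2 scale. The fifth gene of this low end, Mrpl17, differed most of all members and is described below.

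**Figure D1:**
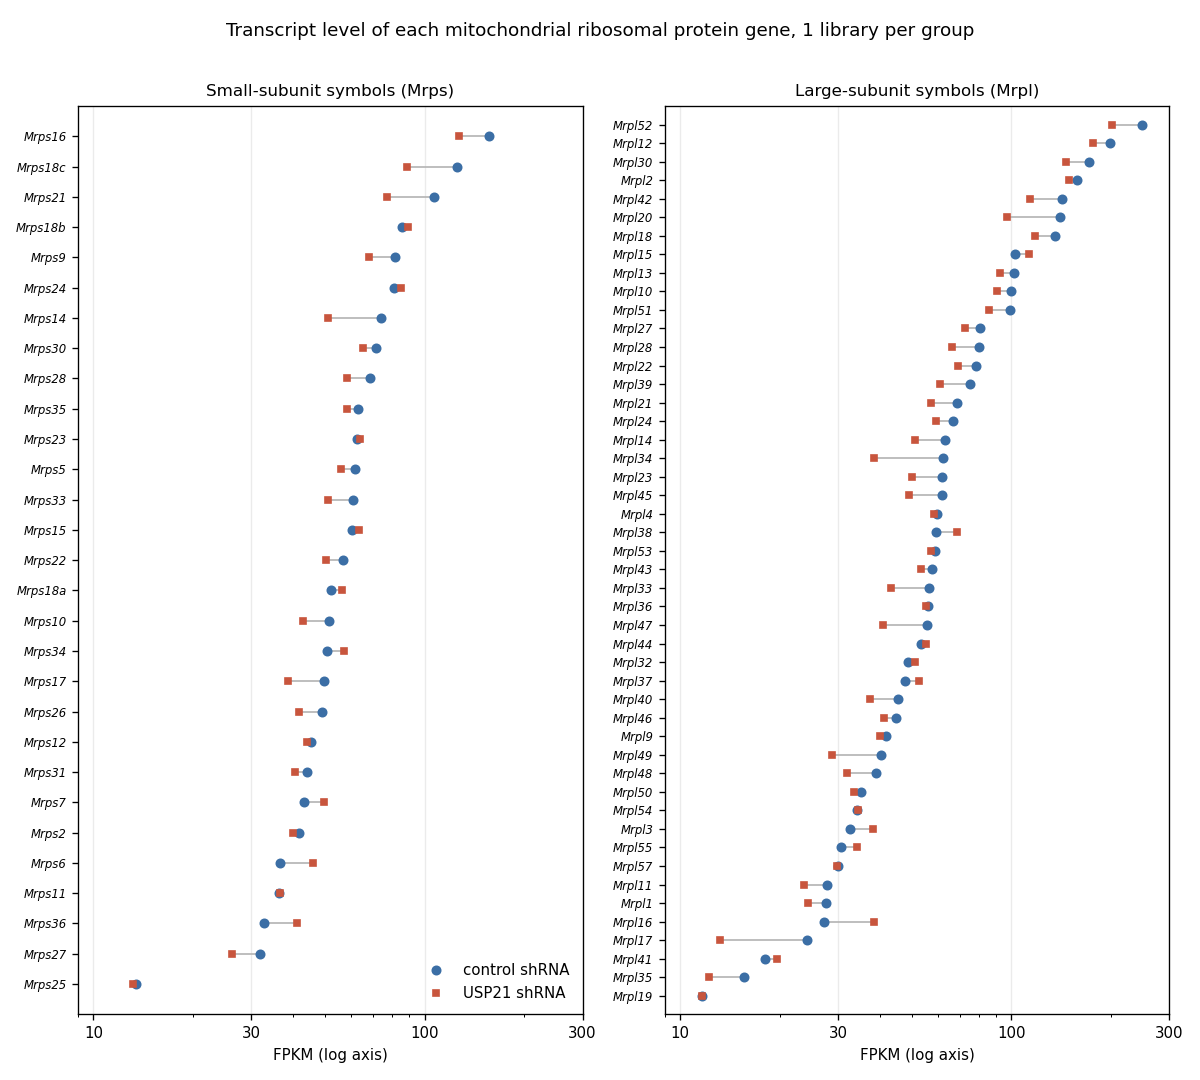
FPKM of the 77 mitochondrial ribosomal protein genes on a log axis, with Mrps symbols in the left panel and Mrpl symbols in the right, sorted by control level; circles are the control shRNA library, squares the USP21 shRNA library, and a line joins the values of a gene (1 library per group, no error bars). In 56 genes the square lies left of the circle on the deposited scale, and with both libraries scaled to equal FPKM sums this number is 34.

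Differences between the libraries were measured as log2((FPKM USP21 shRNA + 0.1)/(FPKM control shRNA + 0.1)), called the log2 ratio, which understates the change of low genes. Since the lowest member lay 116 times above the added 0.1 FPKM, this had little bearing on the members. Their median log2 ratio was -0.14, with the middle 50% between -0.28 and 0.01, against a median of 0.00 over the 11642 expressed genes. Relative to the all-gene median the members were thus lower by 0.14, and 57 of 77 (74%) lay below it. This distance shrank to -0.040 when all genes were corrected for transcript length, as given with the lengths below. The sign of the uncentred median depended on the scaling, since equal FPKM sums moved every gene by about 0.18 and put the members at 0.034 with all genes at 0.18, whereas the distance between them stayed at -0.14. By FPKM as deposited 56 members were lower and 21 higher with the USP21 shRNA, and with equal sums 34 were lower and 43 higher.

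Of the 77 members, 30 differed by less than 10%, beside 34.2% of all expressed genes. A further 35 were lower by 10% or more but by less than 1.5-fold, and 10 were higher by 10% or more. The matching shares of all expressed genes were not computed, but their log2 ratios had a middle 50% between -0.21 and 0.23. Many genes outside the members thus also differed by 10% or more each way, and the split is not read as a trait of the members. This split of the members also depends on the scaling, as given above. Only Mrpl17 and Mrpl34 were lower by at least 1.5-fold, 2 of 77 against 5.89% of all expressed genes, and 0 were higher by 1.5-fold against 7.2%. No member reached 2-fold in either direction on the deposited scale. After correction for transcript length Mrpl17 did so, with a log2 ratio of -1.07, but after correction for coding length it had -0.75. Past 2-fold were 1.76% of all expressed genes lower and 1.98% higher, and 0.787% and 0.804% of genes in the members' level range. That range, the mean FPKM of the lowest to the highest member, held 5718 genes, of which 3.97% were lower and 3.93% higher by 1.5-fold. With equal FPKM sums 1 member was lower by 1.5-fold (Mrpl17) and 1 higher (Mrpl16), and the shares of all genes became 3.45% and 13.3%. The SD of the log2 ratio over the members was 0.24, against 0.46 over all expressed genes and 0.39 over those in the members' level range. The middle 50% of the log2 ratios spanned 0.29 for the members, 0.44 for all expressed genes and 0.36 for genes in the level range. The SD also weighs extreme genes, which reached a log2 ratio of 10.6 in the level range.

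**Figure D2:**
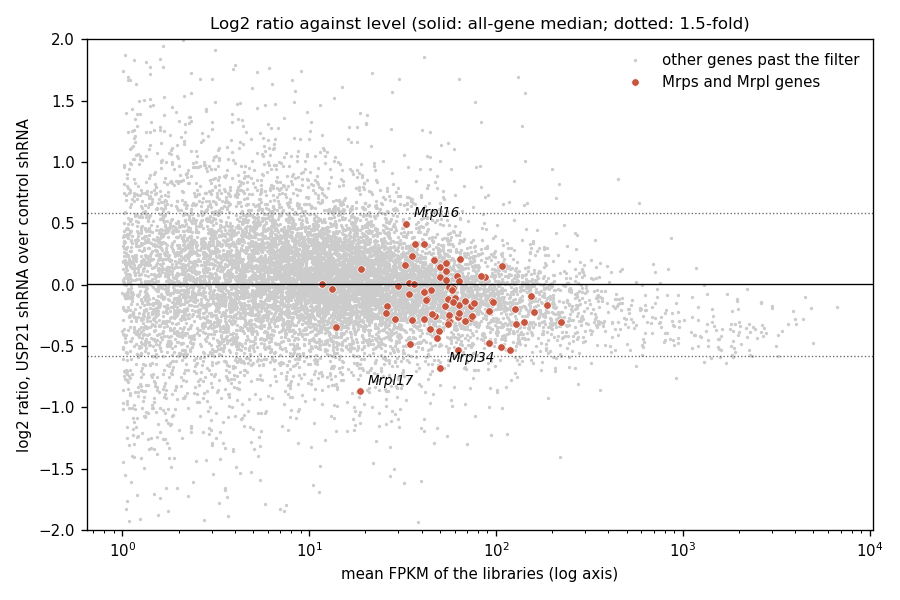
Log2 ratio (USP21 shRNA over control shRNA, vertical) against mean FPKM of both libraries on a log axis (horizontal), with the 77 members as large points and all other genes past a mean FPKM of 1 as small points; the solid line is the all-gene median, dotted lines mark 1.5-fold, and genes beyond the vertical limits are not drawn. The members form a band whose centre is 0.14 below the all-gene line, with Mrpl17 and Mrpl34 under the lower dotted line.

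The shift below the all-gene median was seen at each level of expression. Among genes with a mean FPKM from 10 to under 30, the 9 members had a median log2 ratio of -0.18 and all 3534 genes a median of 0.02. From 30 to under 100 FPKM the medians were -0.13 for 58 members and -0.05 for 2136 genes, and at 100 FPKM or more they were -0.26 for 10 members and -0.18 for 897 genes. Genes at 100 FPKM or more as a whole thus lay below the all-gene median, and within each level class more members lay below the class median than above it (8 of 9, 37 of 58 and 7 of 10).

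The 10 lowest log2 ratios held 4 genes of the small and 6 of the large subunit. Mrpl17, a large-subunit protein of bacterial descent, had 24.1 FPKM in control cells and 13.2 in knockdown cells, a log2 ratio of -0.87. Mrpl34, a very short protein of bacterial descent, had 62.0 and 38.6 (-0.68). Mrpl20, whose bacterial counterpart binds the large ribosomal RNA early in assembly, had 140 and 96.7 (-0.54). After Mrpl17 and Mrpl34 the ratios formed a continuous series rather than a separate group. Mrps14, of the head of the small subunit, had 73.7 and 51.0 FPKM (-0.53). Mrps18c, of the platform of the small subunit, had 126 and 88.4 (-0.51). Mrpl49, found only in mitochondria, had 40.4 and 28.8 (-0.49). These 3 genes thus differed by less than 1.5-fold. Mrps21 had 107 and 76.8 FPKM (-0.48). Mrpl47, whose bacterial counterpart sits at the exit of the peptide tunnel, had 55.5 and 41.0 (-0.43). Mrpl33 had 56.3 and 43.3 (-0.38) and Mrps17 had 49.7 and 38.8 (-0.36). All 10 stayed below the all-gene median under every scaling, because a change of scale moves all genes together.

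The 10 highest log2 ratios held 3 small-subunit and 6 large-subunit genes and Mrps36. Mrpl16, a large-subunit protein of bacterial descent that contacts the incoming tRNA, had 27.2 FPKM in control cells and 38.4 in knockdown cells, a log2 ratio of 0.50. Mrps6, of the platform of the small subunit, had 36.5 and 46.0 (0.33). Mrps36 had 32.7 and 41.3 (0.33), and although it carries a small-subunit symbol its protein is now assigned to the 2-oxoglutarate dehydrogenase complex. Only Mrpl16 came near the 1.5-fold limit. Mrpl3, which reaches toward the peptidyl transferase centre, had 32.5 and 38.3 FPKM (0.24). Mrpl38 had 59.2 and 68.5 (0.21), and Mrps7, of the head of the small subunit, had 43.2 and 49.5 (0.20). The 4 genes that follow were higher by less than 13%. Mrps34 had 50.8 and 57.3 FPKM (0.17) and Mrpl55 had 30.6 and 34.2 (0.16). Mrpl15 had 102 and 113 (0.15) and Mrpl37 had 47.7 and 52.7 (0.15). Of these genes Mrpl15 alone was above 100 FPKM in the control library, and the median control level of the 10 highest ratios was 39.8 FPKM against 59.1 for the 10 lowest. The control level is the denominator of the ratio, which by itself favours lower control levels among the highest ratios. This contrast therefore does not show that ratio and level go together.

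The stretch around each gene's start was searched for letters bound by regulators of nuclear genes for mitochondria. RefSeq promoters (GRCm38.p6, 250 bases before to 50 after the start) were found for 68 of the 77 genes and were read on both strands for GCGCATGCG (the factor NRF1, nuclear respiratory factor), CCGGAAG (ETS factors such as GABPA), AAGATGGCG (YY1) and GGGGCGGGG (SP factors). The NRF1 letters overlap their own reverse complement CGCATGCGC, so a stretch can match on both strands and was counted once per gene. Promoters of 25 members (36.8%) held the ETS letters, against 9.93% of 27025 promoters of all symbols and 21.1% of those of expressed genes. The NRF1 letters stood in 7 (10.3%, against 1.95% and 4.5%) and the YY1 letters in 8 (11.8%, against 1.64% and 3.84%). For the SP letters the count was 13 (19.1%, against 12.9% and 26%). Altogether 35 members held the NRF1, ETS or YY1 letters and 5 held more than 1 kind. A match describes the letters only and does not show that a factor binds.

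The matches in the promoters of the 10 lowest log2 ratios are shown because they include both genes past 1.5-fold. Capitals mark the searched letters, or their reverse complement, and each line reads 5′ to 3′ on the strand of the gene.
Mrpl17, ETS letters, minus strand of chr7:105811308-105811334: catgctccgcCCGGAAGgcgcctcctc
Mrpl17, NRF1 letters, minus strand of chr7:105811080-105811108: ccgagttactGCGCATGCGtcctctgaga
Mrpl34, ETS letters, plus strand of chr8:71464879-71464905: actacagctcCCGGAAGgccccgcggc
Mrps18c, ETS letters, plus strand of chr5:100798593-100798619: ggtcacgtgaCTTCCGGcccgggaagc
Mrps21, ETS letters, minus strand of chr3:95871480-95871506: gtagcttccgCTTCCGGtccgcagaga
Mrpl33, ETS letters, plus strand of chr5:31613938-31613964: cgcgcatgccCCGGAAGtagtcgttga

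Mrpl17, the lowest of all members, was the only gene of the 10 lowest with the NRF1 letters, and its promoter held the ETS letters as well. The ETS letters stood in 5 of these 10 promoters and the YY1 and SP letters in 0. Over all members with a promoter the shares were 36.8% for ETS, 11.8% for YY1 and 19.1% for SP letters. Of the 10 highest log2 ratios 7 had a promoter in the reference, and their matches follow.
Mrpl3, ETS letters, plus strand of chr9:105053239-105053265: gagaaacggaCCGGAAGtggcccggct
Mrpl37, YY1 letters, minus strand of chr4:107066822-107066850: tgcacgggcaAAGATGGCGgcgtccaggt
Mrpl37, SP letters, minus strand of chr4:107066936-107066964: aactgcctgaGGGGCGGGGacaaagcaag
Mrps6, SP letters, plus strand of chr16:92058211-92058239: ctccgggagaGGGGCGGGGcggtgccggg
Mrps36, SP letters, minus strand of chr13:100744691-100744719: ggcgggaagaGGGGCGGGGcggacgcaga
Mrps7, SP letters, plus strand of chr11:115603921-115603949: gagcagggcgGGGGCGGGGcccgcatggg

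Among these 7 promoters the ETS letters stood in 1, the YY1 letters in 1, the NRF1 letters in 0 and the SP letters in 4. Whether counts in so few promoters differ from the shares of all members was not tested. Over all members with a promoter, the median log2 ratio was -0.21 with the ETS letters and -0.14 without them, beside -0.03 and 0.02 over all expressed genes. The YY1 and SP letters ran the other way. Members had medians of -0.0074 with and -0.18 without the YY1 letters (0.05 and 0.01 over all expressed genes), and of -0.09 with and -0.20 without the SP letters (0.03 and 0.00). For the NRF1 letters the medians were -0.14 and -0.18, and the ratios of the members that held them ran from -0.87 for Mrpl17 to 0.06 for Mrpl32. Of the factors themselves, Nrf1 had 28.1 FPKM in control cells and 30.2 in knockdown cells, Gabpa had 37.2 and 36.9, and Yy1 had 36.5 in both. SP factors were not examined.

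Split by subunit, the 26 small-subunit genes had a median log2 ratio of -0.13 and 18 of them lay below the all-gene median. The 50 large-subunit genes had a median of -0.16 with 39 below it. Genes were also grouped by whether their product takes the place of a bacterial ribosomal protein (called bacterial descent here) or has no counterpart at its place in the bacterial ribosome (called found only in mitochondria). The medians lay close together. They were -0.19 for 16 small-subunit genes of bacterial descent and -0.12 for the 10 found only in mitochondria, and in the large subunit -0.17 for 30 and -0.12 for 18. Both members past 1.5-fold were large-subunit genes of bacterial descent, so that class held 2 of 30, near the 5.89% of all expressed genes, and the other classes 0.

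Symbols and subunits do not always correspond, which the Mrps18 paralogues show. The products of Mrps18a, Mrps18b and Mrps18c are related to the same bacterial protein, but that of Mrps18a sits in the large subunit and the others in the small. Only Mrps18c holds the bacterial place, and Mrps18b was therefore counted above with the genes found only in mitochondria. Mrps18a had 52.2 FPKM in control cells and 56.3 in knockdown cells (log2 ratio 0.11). Mrps18b had 85.5 and 89.2 (0.06), and Mrps18c had 126 and 88.4 (-0.51). Of the 3 paralogues Mrps18c was the most abundant in the control library and close to Mrps18b in knockdown cells. Mrps30, another large-subunit protein with a small-subunit symbol, had 71.5 and 65.1 FPKM (-0.14).

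A further 6 proteins of the mitochondrial ribosome are listed under other symbols and fell outside the naming rule. Dap3, a GTP-binding protein of the small subunit, had 34.6 FPKM in control cells and 31.7 in knockdown cells (log2 ratio -0.12). Chchd1 had 87.1 and 77.3 (-0.17), and Aurkaip1 had 61.2 and 54.9 (-0.16), both of the small subunit. Their ratios lay in the middle range of the members. Ptcd3, a pentatricopeptide protein of the small subunit, had 64.7 and 64.5 FPKM (0.00). Of the large subunit, Gadd45gip1 had 18.1 and 18.5 (0.03) and Ict1, a peptidyl-tRNA hydrolase built into the ribosome, had 31.9 and 36.7 (0.20). The median of the 6 was -0.06, with 0 past 1.5-fold.

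Other steps of mitochondrial gene expression were described from lists of genes that assemble, charge, feed and regulate this ribosome. The 25 assembly factors had a median log2 ratio of -0.11, with 17 below the all-gene median, 2 lower by 1.5-fold and 0 higher. Those 2 were Gtpbp10, a GTPase of large-subunit assembly, with 23.5 and 14.1 FPKM (-0.74), and Mettl15, a methyltransferase of the small ribosomal RNA named after its values were seen, with 4.88 and 3.03 (-0.67). Of 13 translation factors 12 lay below the all-gene median, the median was -0.25, and 0 passed 1.5-fold. Gfm2, a factor of ribosome recycling, had 28.0 and 21.6 FPKM (-0.37). The 17 mitochondrial aminoacyl-tRNA synthetases had a median of 0.00, with 8 below the all-gene median. Sars2, which charges serine tRNA, had 15.9 and 21.6 FPKM (0.44). The only gene of that list past 1.5-fold was Wars2, which charges tryptophan tRNA and was also named after its value was seen, with 2.06 and 3.81 (0.86).

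The 17 genes of mitochondrial transcription and RNA processing had a median of -0.01 and 0 past 1.5-fold. Slirp, an RNA-binding partner of Lrpprc, had 286 and 205 FPKM (-0.48). Of 10 regulators 9 were expressed, with a median of 0.10, and Ppargc1a, a coactivator of mitochondrial genes, was under 0.01 FPKM in both libraries. Myc, which promotes ribosome production, had 26.7 and 22.8 FPKM (-0.22). Of the 9 regulators 6 lay above the all-gene median, beside 50% of all expressed genes by definition. With so few genes, and with no length correction given for this list, no contrast with the members is drawn.

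Nuclear genes of the respiratory chain and of the cytosolic ribosome lay lower than the members relative to all genes. The 73 expressed respiratory chain subunits had a median log2 ratio of -0.30, with 71 below the all-gene median and 6 lower by 1.5-fold. The 76 expressed cytosolic ribosomal protein genes had a median of -0.41, with all 76 below the all-gene median and 5 lower by 1.5-fold. Both counts were near the 5.89% of all expressed genes. The genes of these lists were also far more abundant than the members. Their median control levels were 219 and 1857 FPKM, against 57.7 FPKM for the members. Uqcrh, a small subunit of complex III, had 250 and 131 FPKM (-0.93), and Rps27, a cytosolic ribosomal protein, had 110 and 8.64 (-3.66). Rps27 stood apart from its list. It was the only expressed gene there lower by 2-fold and had the lowest level in both libraries, and the next lowest ratio was -0.76. Sequence shared with other genes was not examined for it.

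**Figure D3:**
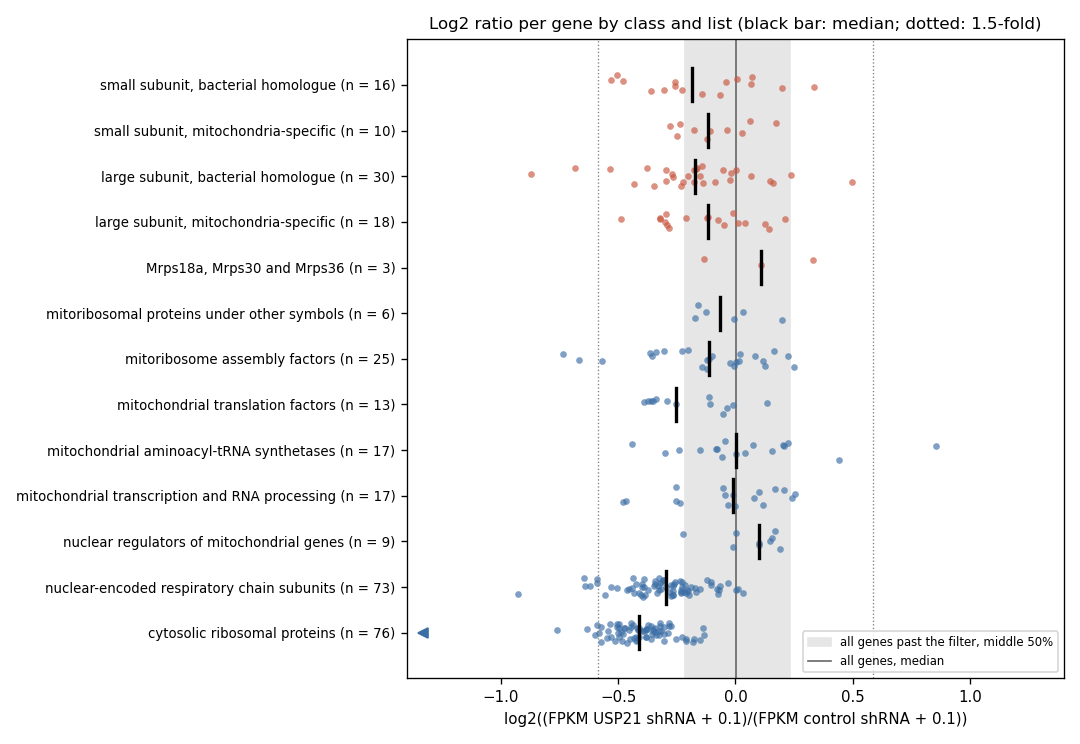
Log2 ratio of each gene (horizontal, USP21 shRNA over control shRNA) by class of mitochondrial ribosomal protein (upper 5 rows) and for 8 further lists (lower rows); a point is a gene, the black bar the median of the row, the grey band the middle 50% of all genes past a mean FPKM of 1 and dotted lines 1.5-fold, with genes past the axis drawn as an arrowhead. The classes of members centre between -0.12 and -0.19 apart from Mrps18a, Mrps30 and Mrps36, the aminoacyl-tRNA synthetases centre at 0.00 and the cytosolic ribosomal proteins at -0.41; equal FPKM sums move all points right by about 0.18, which takes the members' median to 0.034.

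The log2 ratio also moved with gene length. Over 11573 expressed genes it had a Spearman rho of 0.32 with annotated transcript length and, over 11308 genes, of 0.27 with coding length, across genes that share both libraries. The members are short, with a median transcript of 1288 bases against 2903 and a median coding length of 576 bases against 1377. Among the members themselves rho was -0.01 with transcript length and 0.22 with coding length. The short ones were therefore not lower than the long ones by annotated transcript length. Some members with a short coding length have a long annotated transcript, such as Mrps17 (5061 bases, 360 of them coding) and Mrps14 (2999 and 384). How far the values by transcript length depend on the transcript chosen for each gene was not tested. The 25 members with transcripts under 1000 bases had a median of -0.15, above the -0.23 of all genes in that class. Those from 1000 to 2000 bases had -0.13 (28 members) against -0.10. The 24 members with longer transcripts had -0.19 against 0.05, and 21 of them lay below the median of their class.

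By coding length the picture was more even. The medians were -0.23 for 27 members against -0.18 for all genes under 500 bases, -0.12 for 39 against -0.08 from 500 to 1000 bases, and -0.14 for 11 against 0.05 above that. After a lowess correction of all log2 ratios for transcript length, the distance of the members from the all-gene median was -0.040 in place of -0.14, and 46 of 77 lay below it. With coding length, a choice made after seeing the data, the distance was -0.068 and the count again 46. Under the transcript correction Mrpl17 had a log2 ratio of -1.07, Mrpl34 of -0.41 and Mrpl16 of 0.64, and the medians of the cytosolic ribosomal proteins and the respiratory chain subunits were -0.22 and -0.10. The annotated transcript of Mrpl17 is 7300 bases long with 528 coding bases, so its correction depended on which length was used. With coding length its log2 ratio was -0.75.

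**Figure D4:**
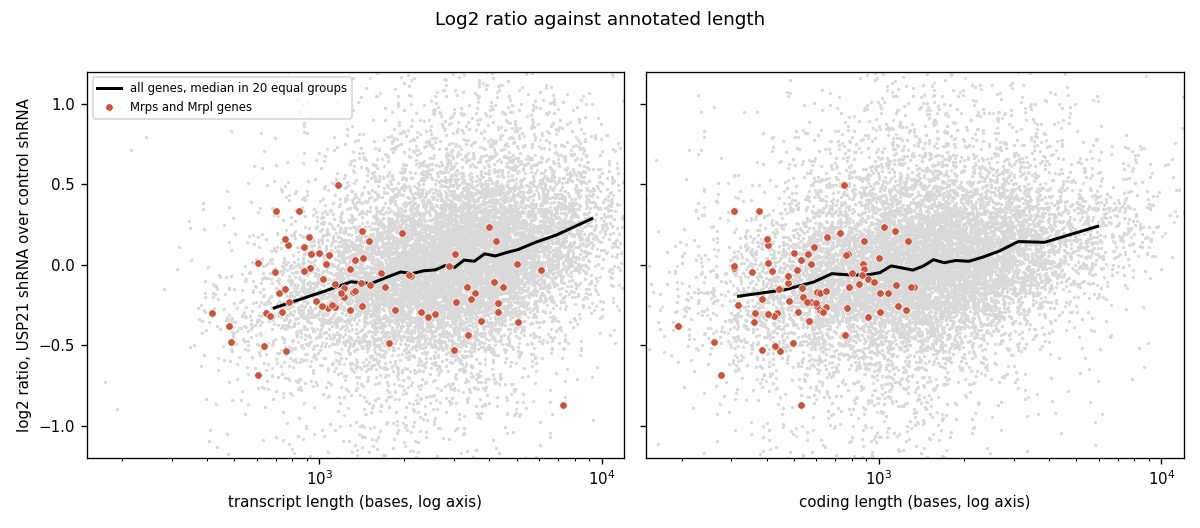
Log2 ratio (USP21 shRNA over control shRNA) against annotated transcript length (left) and coding length (right) in bases on log axes; large points are the 77 members, small points all genes past a mean FPKM of 1, the black line the median of all genes in 20 groups of equal size, and points beyond the axes are not drawn. The all-gene median climbs with length while the members show no such slope with transcript length (rho -0.01), and most members longer than 2000 bases lie under the line.

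The 77 genes lie on 17 chromosomes of GRCm38, and 29 of them start within 1000 bases of a gene that runs in the opposite direction. For 4 of these the neighbour was not expressed. The rest formed 24 distinct pairs, since Mrpl46 and Mrps11 are neighbours of each other. In 14 pairs both genes lay on the same side of the all-gene median (10 below and 4 above) and in 10 on opposite sides. Most members lay below that median, so pairs on the same side can arise without any tie between neighbours. No comparison with unrelated pairs was made. The pairs named here were picked after their values were seen. Mrps12, a protein of the decoding centre, had 45.2 FPKM in control cells and 44.0 in knockdown cells (log2 ratio -0.04), and its neighbour Sars2, itself a gene of mitochondrial translation, had a ratio of 0.44. Mrps27 and Ptcd2, a mitochondrial RNA-processing gene, had ratios of -0.28 and -0.47. Mrpl46 and Mrps11, which encode a large- and a small-subunit protein, had -0.12 and 0.01. Mrps18c at -0.51 and Helq, a DNA helicase, at 0.15 lay far apart. Neighbours were thus found both close to and far from their member.

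**Figure D5:**
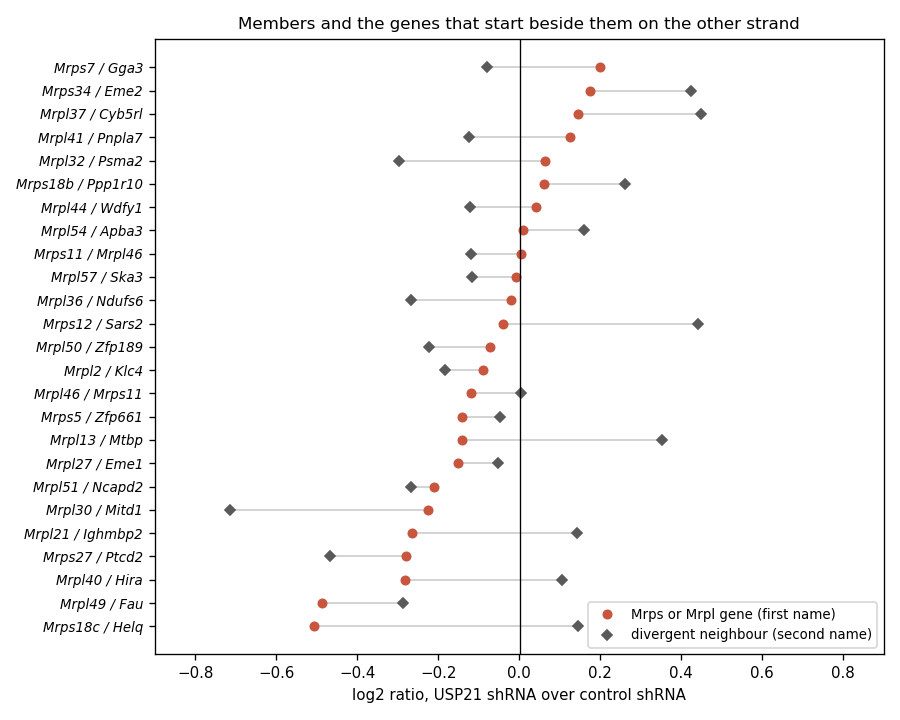
Log2 ratios (USP21 shRNA over control shRNA) of members (circles, first name) and of the expressed genes that start within 1000 bases on the other strand (diamonds, second name), sorted by the member; the vertical line is the all-gene median, and the pair of Mrpl46 and Mrps11 appears in both orders. In 14 of 24 distinct pairs both points lie on the same side of the line, and no comparison with unrelated pairs was made.

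Some of the values cannot be assigned to a member alone. By the annotation 26 members overlap another listed gene, and 14 share at least 20% of the 31-base words of their transcript with other genes. Whether strand was used in the counting, and how shared fragments were assigned, is not given in the sources used here. Of the genes named above, Mrpl17, Mrpl33, Mrpl47 and Mrpl49 among the lowest and Mrps6, Mrps7 and Mrps34 among the highest overlap another gene. Shared words were 67.6% for Mrpl23, 41.6% for Mrps36, 35.5% for Mrps18c, 33.9% for Mrps18b, 33.8% for Mrps6, 33.3% for Mrpl33 and 22.3% for Mrps21, and all words of Mrpl53 occur in 1 other gene model. The 40 members with neither limit had a median log2 ratio of -0.14, with 30 below the all-gene median, a choice of members made after seeing the data.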

How the data were processed

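RNA sequencing of E14 mESCs was analysed from 2 libraries (control shRNA, USP21 shRNA). The authors deposited FPKM values, 1 per gene symbol and library. The submitters' processing notes name CASAVA 1.8.2, TopHat2 2.0.14, Cufflinks 2.2.1 and the build mm9. The annotation, filters and strand setting are not given in the sources used here. FPKM scales each library by its own fragments, so genes can shift together between libraries. The files hold no counts, so no interval or detection floor was computed.

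Members were matched by symbol. The log2 ratio used a pseudocount of 0.1 FPKM, and genes with a mean FPKM of at least 1 were kept. Lengths, neighbours and overlaps came from GENCODE M21 (GRCm38), which held 98.5% of the symbols, and promoters from RefSeq (GRCm38.p6). For lengths 1 transcript per gene was used, the one with the longest coding sequence and, among equals, the longest. The 31-base words of each transcript were searched in all others. No promoter entry was found for Mrpl13, Mrpl15, Mrpl19, Mrpl38, Mrpl4, Mrpl54, Mrps28, Mrps34 and Mrps35.

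The members, lists and markers were chosen with earlier results of these data known. Genes were named by rule: log2 ratios past 1.5-fold, the 10 highest and 10 lowest, the 5 highest and 5 lowest control levels, the Mrps18 paralogues, Mrps30 and Mrps36, and from each other list the largest ratio with a mean FPKM of at least 5. The alternatives were other pseudocounts, filters, scalings and length corrections. Scripts were tested on simulated data. Values were computed in Python 3.11.15 with pandas 2.3.3 and numpy 2.4.6, correlations with scipy 1.17.1, lowess fits with statsmodels 0.14.6 and plots with matplotlib 3.10.9.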

Additional observations from a re-analysis of the deposited data

How the results depend on the processing

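No paired analysis was possible because each group holds 1 library and the labels carry no replicate numbers, and leaving out a library leaves no comparison. The median log2 ratio of the members (-0.14) became 0.034 with equal FPKM sums, -0.11 with equal 75th percentiles, -0.042 after the lowess correction (span 0.3) for transcript length and -0.071 after that for coding length. The distance of the members from the all-gene median (-0.14) became -0.13 with a mean FPKM of at least 5, -0.12 against genes in the members' level range, -0.040 with the transcript correction and -0.068 with the coding correction. Members lower by 1.5-fold numbered 1 in place of 2 with equal sums, with the transcript correction and with the coding correction, and members higher by 1.5-fold numbered 1 in place of 0 with equal sums and with the transcript correction. Members below the all-gene median numbered from 46 to 57 of 77 over these settings. The coding correction, the restriction to the level range and the restriction to 40 members were chosen after seeing the data. Pseudocounts of 0.01 and 1 FPKM, filters at a mean FPKM of 0.1 or none, and centring the all-gene median at 0 moved none of the 5 summary values by more than 0.005 or, for counts, by more than 1 gene. The files give no counts, so the depth behind a single gene's ratio is unknown.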
